A study of Mus musculus with 12 samples.

Results

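The 10 genes described here control whether heart muscle cells divide, and were measured in 12 libraries of mouse left ventricle. They were the growth factor gene Nrg1, the receptor genes Erbb2, Erbb3 and Erbb4, the Hippo effectors Yap1 and Wwtr1, the transcription factor genes Meis1, Gata4 and Tbx20, and the secreted glycoprotein gene Fstl1. They were chosen by name, and all 10 of 10 were found among the 38293 genes counted. The hearts came from healthy C57BL/6J mice with no allele or transgene named in the labels, and the age of the animals was not given in the sources used here. The thorax of each mouse was opened under anaesthesia and the heart muscle received 2 doses of 10 µl, so every group, the controls included, had the surgery and the injections. Group 1 (PBS) received buffered saline. Group 2 (Upy-PEG) received a hydrogel of poly(ethylene glycol) chains joined by hydrogen-bonding ureidopyrimidinone units. Group 3 (called antimiR-195) received that same hydrogel loaded with antimiR-195, an oligonucleotide directed against the microRNA miR-195, and no group received antimiR-195 without the gel. Tissue was taken at day 3, and polyadenylated RNA was sequenced in 4 libraries per group. All 10 genes passed the filter on low counts and are among the 14770 genes tested, but Nrg1 passed only with the Upy-PEG libraries present. In the 8 PBS and antimiR-195 libraries alone it failed the filter.

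Neuregulin 1, the product of Nrg1, is a ligand made in the heart largely by endothelial cells. It binds ERBB4 or ERBB3 on neighbouring cells, which then pair with ERBB2, a receptor that has no ligand of its own. YAP, encoded by Yap1, and TAZ, encoded by Wwtr1, are coactivators that the kinases of the Hippo pathway keep out of the nucleus, and with TEAD proteins on DNA they switch on growth genes. GATA4 and TBX20 are transcription factors that heart muscle needs for its growth, and MEIS1 holds cardiomyocytes out of the cell cycle after birth. FSTL1 is a secreted glycoprotein of the follistatin family, and its epicardial form has been linked to cardiomyocyte renewal after injury. miR-195 belongs to the miR-15 family, which holds back the division of cardiomyocytes.

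The sequences that connect these genes to the drug are the seed that antimiR-195 is meant to block and its matches in their 3′ untranslated regions. A microRNA recognises its targets mainly through bases 2 to 8, the seed, which are printed in capitals. miR-195a-5p lies at chr11:70235062-70235082 on the + strand and miR-497a-5p at chr11:70234730-70234751 on the same strand. The mature sequences are from RefSeq on GRCm38.p6, written 5′ to 3′, and 4 members of the family are shown as examples of the shared seed.
mmu-miR-195a-5p: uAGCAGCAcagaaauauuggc
mmu-miR-497a-5p: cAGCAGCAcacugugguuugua
mmu-miR-15a-5p: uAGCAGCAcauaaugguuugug
mmu-miR-16-5p: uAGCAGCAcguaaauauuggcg

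A seed match was taken as TGCTGCT on the transcript strand, and as an 8mer where an A followed it (TGCTGCTA, which contains the shorter match). The longest annotated 3′ untranslated region of each gene was searched. Erbb4, Tbx20 and Fstl1 held at least 1 match, which is 3 of the 10 genes. Nrg1, Erbb2, Erbb3, Yap1, Wwtr1, Meis1 and Gata4 held none in the region searched. A shorter seed site, the 8mer without its first T, was not taken as a match. Of these genes, Nrg1 and Yap1 each held 1 such shorter site, and its share over all genes was not counted. Of 13317 genes with a region to search, 3300 (24.78%) held a match and 604 (4.54%) held an 8mer. These shares were not adjusted for the length of the region, whose median was 1192 bases. The region searched had 7855 bases for Erbb4, 7314 for Tbx20 and 2588 for Fstl1, and 1048 to 5687 for the 7 genes with no match. Each match is printed with flanking bases on the transcript strand, 5′ to 3′, the match in capitals, on GRCm38 and from GENCODE release M21 transcripts. All 5 lie in the last exon of their transcript. The Erbb4 8mer is in exon 28 of 28 at chr1:68036613-68036640 on the - strand. The Tbx20 matches are in exon 8 of 8 at chr9:24724428-24724455 and chr9:24718155-24718182 on the - strand. Those of Fstl1 are in exon 11 of 11 at chr16:37834311-37834338 and chr16:37835720-37835747 on the + strand.
Erbb4 8mer: tagagtcaccaaacTGCTGCTActcaag
Tbx20 match 1: atatacatctgcttTGCTGCTgtttcca
Tbx20 match 2: aagggacttctgttTGCTGCTgggggaa
Fstl1 match 1: gtagggaggaacccTGCTGCTttgaccc
Fstl1 match 2: atcatcaaaagtttTGCTGCTgggaaga

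The libraries held 22353241 to 30278621 counts on genes. The left ventricle label was checked against 8 cardiomyocyte markers (Myh6, Actn2, Tnnt2, Tnni3, Ryr2, Ttn, Pln and Myl2), all of which were detected. Their summed level was 61890 to 70670 CPM (counts scaled to a common library total) in PBS, 44600 to 59100 in Upy-PEG and 59780 to 65600 in antimiR-195 libraries. AntimiR-195 replicates 2 and 3 stood apart from the other libraries in how their counts depended on gene length. The length slope is the change in a library's log2 CPM, relative to the mean of all libraries, per log2 unit of gene length. It was -0.229 and -0.1354 in those libraries and between -0.04153 and 0.1218 in the other 10, so that long genes had lower values in them. Both libraries are in the antimiR-195 group, and values without them are given for some, not all, of the genes whose level is lowest in them. Nothing in the labels ties each library to an animal of its own, so the p-values reflect only how far these samples differ within a group, which may be technical.

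Per length of gene, Fstl1 and Gata4 were the most abundant of the 10 and Erbb4 and Nrg1 the least. Levels are in RPKM, deposited reads per kilobase of gene scaled to the reads of the library, as the mean over the 12 libraries. Fstl1 was highest at 50.7 RPKM (28.6 to 107 over the libraries), followed by Gata4 at 30.4 RPKM (22.7 to 37.4). Fstl1 exceeded Gata4 in 11 of 12 libraries, and Gata4 exceeded the next gene, Wwtr1, in 12 of 12. Wwtr1 at 15.9 RPKM (14.2 to 18.01), Tbx20 at 14.4 RPKM (7.91 to 20.5) and Yap1 at 11.3 RPKM (9.51 to 13.5) were close neighbours. Wwtr1 exceeded Tbx20 in 8 libraries and Tbx20 exceeded Yap1 in 9, so these neighbours were not separated beyond their spread. The receptors and Meis1 were lower. Erbb3 had 2.46 RPKM (1.44 to 3.52), Erbb2 had 2.22 RPKM (1.59 to 3.38) and Meis1 had 2.17 RPKM (1.49 to 3.02), with Erbb3 above Erbb2 in 8 libraries and Erbb2 above Meis1 in 5. Erbb4 had 0.680 RPKM (0.422 to 0.846), below Meis1 in 12 of 12 libraries. Nrg1, the ligand, was the lowest at 0.257 RPKM (0.113 to 0.725), below Erbb4 in 12 of 12 libraries. Within whole ventricle, a lower level of any of these genes can reflect fewer cells of a type or less RNA per cell, which cannot be told apart.

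**Figure D1:**
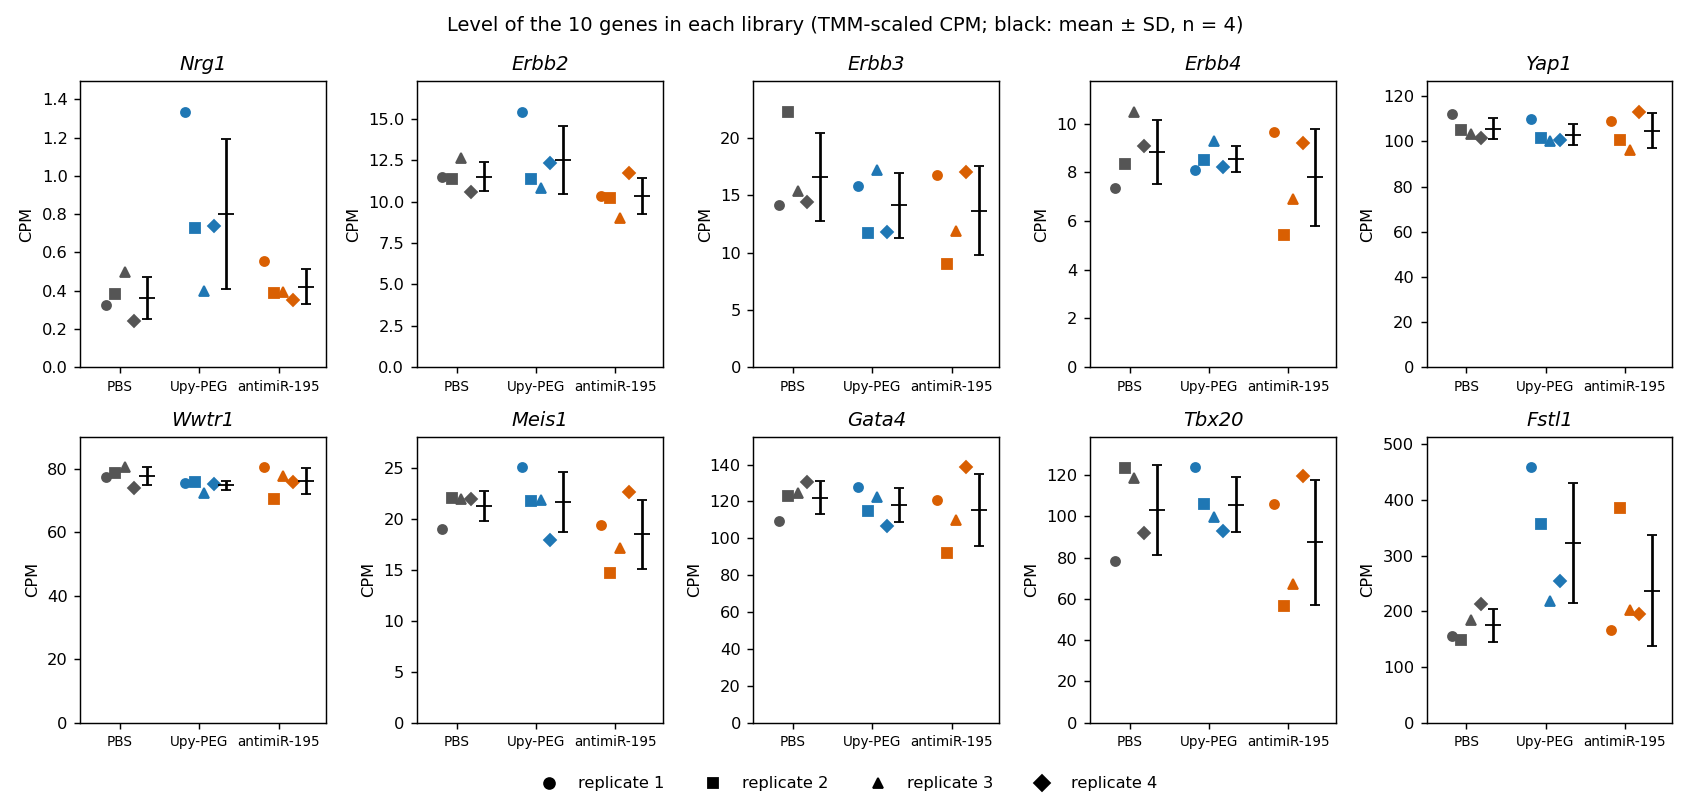
Level of each of the 10 genes in every library, in CPM scaled by TMM (vertical axis from 0, a separate scale for each gene), with replicates 1 to 4 of PBS, Upy-PEG and antimiR-195 as points and the mean ± SD (n = 4) in black. Only the Fstl1 panel has 1 group wholly above another: all Upy-PEG libraries lie above all PBS libraries, from 219 to 459 against 148 to 213 CPM.

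The 10 genes differed widely in how steady they were. Wwtr1 had a coefficient of variation (CV, the SD as a percent of the mean CPM over the 12 libraries) of 3.95%, and Yap1 of 5.18%. Among tested genes whose mean CPM was within 2-fold of theirs, 0.388% had a lower CV than Wwtr1 and 2.28% a lower CV than Yap1. Gata4 (10.6%), Erbb2 (13.9%), Meis1 (14.02%) and Erbb4 (16.2%) were below the median CV of 18.7% of all tested genes. Tbx20 (22.6%) and Erbb3 (23.6%) were above it. Fstl1 varied most among the abundant ones, with a CV of 41.2%, above that of 98.1% of genes at a similar level. Nrg1 had a CV of 56.4%, from 6 to 43 counts a library.

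None of the 10 genes passed an adjusted p of 0.05 in any of the 3 comparisons (edgeR quasi-likelihood test, Benjamini-Hochberg over the 14770 genes tested). The background was the same: 0% of all genes passed in Upy-PEG against PBS, 0% in antimiR-195 against Upy-PEG and 0% in antimiR-195 against PBS. Nrg1 entered the test through the Upy-PEG libraries, where it is high, and is left out of the counts at an unadjusted p under 0.05. Of the other 9 genes, 1 (Fstl1) was past it in Upy-PEG against PBS, where it was higher, beside 9.33% of all genes higher, 3.83% lower and 13.2% in either direction. In antimiR-195 against Upy-PEG it was 0 of 9, beside 6.4% of all genes lower, 6.67% higher and 13.1% in either direction. In antimiR-195 against PBS it was 0 of 9, beside 8.65% of all genes higher, 7.89% lower and 16.5% in either direction. Fstl1 was the 1 gene of the 10 whose groups did not overlap, in Upy-PEG against PBS, beside 9.68% of all genes in either direction. In antimiR-195 against Upy-PEG it was 0 of 10 beside 4.4% of all genes (1.94% higher), and in antimiR-195 against PBS 0 of 10 beside 6.06% (2.74% higher). With other tools on the same libraries, Fstl1 was the 1 gene of the 10 past the adjusted threshold in Upy-PEG against PBS, by DESeq2 (3.46% of all genes) and by limma voom with sample weights (6.22%). Neither tool called any of the 10 in the other comparisons, where DESeq2 called 0.108% and 0.657% of all genes and limma voom 0% and 0.00677%. The 3 comparisons share their groups in pairs, so their values for a gene are not independent.

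**Figure D2:**
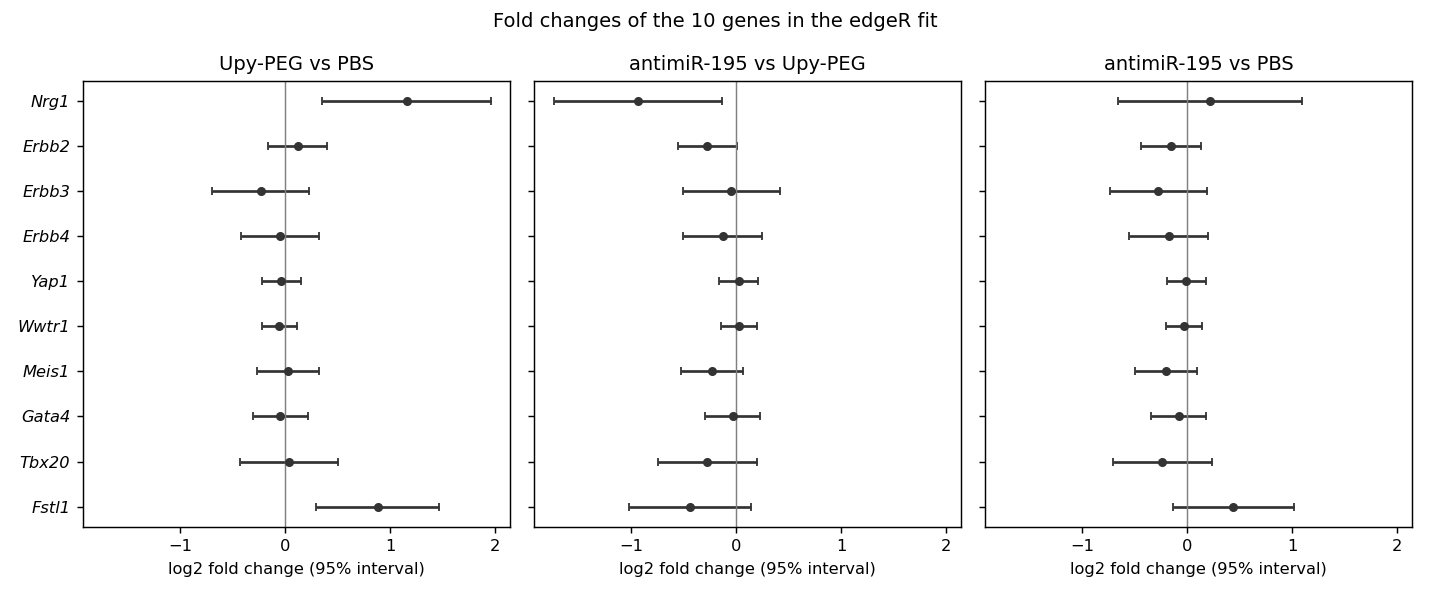
Log2 fold change of each of the 10 genes with its 95% interval (horizontal axis; edgeR fit on all 12 libraries) in the 3 comparisons named above the panels, with the grey line at no difference. Nrg1, which was tested only because of the Upy-PEG libraries, is shown as a description. The interval of Fstl1 lies above 0 in Upy-PEG against PBS, and Yap1 and Wwtr1 have the narrowest intervals.

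The ligand gene Nrg1 was higher in 3 of the 4 Upy-PEG libraries than in any PBS library. Since it was tested only because of those libraries, its differences are given as a description. Nrg1 (ENSMUSG00000062991; GRCm38 chromosome 8, 31814551 to 32884029, - strand) had 10, 9, 12 and 6 counts in PBS replicates 1 to 4, 43, 22, 10 and 20 in Upy-PEG and 12, 9, 8 and 9 in antimiR-195. In CPM this was 0.326, 0.382, 0.500 and 0.239 in PBS, 1.34, 0.727, 0.397 and 0.739 in Upy-PEG, and 0.557, 0.387, 0.391 and 0.348 in antimiR-195. Upy-PEG replicate 1 was the highest of all libraries, and Upy-PEG replicate 3 lay within the range of PBS. The log2 difference between Upy-PEG and PBS was 1.16 ± 0.374 (SE; n = 4 and 4; 2.23-fold). Against Upy-PEG, antimiR-195 libraries were lower by a log2 difference of -0.94 ± 0.373 (0.521-fold). Without Upy-PEG replicate 1 these differences were 0.79 and -0.57. Between antimiR-195 and PBS the log2 difference was 0.22 ± 0.409, and the groups overlapped. Summed endothelial markers (8 of 8 detected) were 1335 to 1888 CPM in PBS, 1282 to 1477 in Upy-PEG and 1461 to 1719 in antimiR-195 libraries. Taken singly, all 8 were lower in Upy-PEG than in PBS (5 with library size alone), beside 44.7% of all genes higher. The part of the endothelial markers in the Nrg1 values was not tested. Summed macrophage markers (8 of 8 detected) were 573.1 to 885.3, 1095 to 1627 and 764 to 1519 CPM, moving in the same direction as Nrg1 in Upy-PEG, and their part in the Nrg1 values was not tested.

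The receptor genes Erbb2, Erbb3 and Erbb4 overlapped between the groups in all 3 comparisons. Erbb2, the shared signalling partner (ENSMUSG00000062312; chromosome 11, 98412470 to 98437716, + strand), had 11.47, 11.4, 12.7 and 10.6 CPM in PBS, 15.4, 11.4, 10.8 and 12.3 in Upy-PEG and 10.3, 10.2, 9.04 and 11.7 in antimiR-195. As for Nrg1, its highest library was Upy-PEG replicate 1. Its log2 difference was 0.12 ± 0.130 for Upy-PEG against PBS and -0.27 ± 0.131 for antimiR-195 against Upy-PEG (edgeR adjusted p = 0.771 and 0.383). Without Upy-PEG replicate 1 these were 0.0064 and -0.16. Erbb4, a neuregulin receptor of cardiomyocytes with the 8mer shown above (ENSMUSG00000062209; chromosome 1, 68032186 to 69108059, - strand), had 7.36, 8.36, 10.5 and 9.08 CPM in PBS, 8.08, 8.53, 9.29 and 8.24 in Upy-PEG and 9.65, 5.42, 6.89 and 9.21 in antimiR-195. Its lowest values were those of antimiR-195 replicates 2 and 3. The log2 difference of Erbb4 between antimiR-195 and Upy-PEG was -0.13 ± 0.175, and it was 0.15 without those libraries. Its counted length, 12355 bases, was the longest of the 10.

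Erbb3, the receptor with little kinase activity of its own (ENSMUSG00000018166; chromosome 10, 128567523 to 128589652, - strand), had 14.2, 22.3, 15.4 and 14.5 CPM in PBS, 15.8, 11.7, 17.2 and 11.8 in Upy-PEG and 16.8, 8.99, 11.9 and 17.1 in antimiR-195. PBS replicate 2 was the highest of the 12 and antimiR-195 replicate 2 the lowest. The log2 difference of Erbb3 was -0.23 ± 0.215 for Upy-PEG against PBS, -0.05 ± 0.217 for antimiR-195 against Upy-PEG and -0.28 ± 0.217 for antimiR-195 against PBS. Without PBS replicate 2 the values against PBS were -0.05 for Upy-PEG and -0.10 for antimiR-195. Without antimiR-195 replicates 2 and 3 the antimiR-195 values were 0.26 against Upy-PEG and 0.04 against PBS. Erbb3 is also a gene of Schwann cells. Summed Schwann cell markers (8 of 8 detected, 6 of 8 tested) were 12.18 to 16.53 CPM in PBS, 11 to 14.76 in Upy-PEG and 11.44 to 13.7 in antimiR-195 libraries, and their part in the Erbb3 values was not tested.

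Of the other ligands of the family and the enzymes that release them, 11 of 14 were tested, and Nrg3, Areg and Epgn were too low. In Upy-PEG against PBS 7 of the 11 were higher (8 with library size alone), beside 44.7% of all genes. None was past the adjusted threshold by edgeR, DESeq2 or limma voom, and 2 had an unadjusted edgeR p under 0.05, beside 13.2% of all genes. The median log2 difference of the 11 was 0.19 beside -0.03 for all genes. Hbegf, which encodes a ligand of EGFR and ERBB4, averaged 26.9 against 21.5 CPM (log2 difference 0.33 ± 0.145), and Adam10, which encodes a sheddase, 59.8 against 49.8 CPM (0.26 ± 0.117). For both genes all 4 Upy-PEG libraries lay above those of PBS, as for 5.91% of all genes. In antimiR-195 against Upy-PEG 1 of the 11 was higher (0 with library size alone), beside 49.2% of all genes, with a median of -0.18 beside -0.01 for all genes. None was past the adjusted threshold by the 3 tools and 1 had an unadjusted edgeR p under 0.05, beside 13.1% of all genes. That gene was Tgfa, an EGFR ligand gene, with 0.581 against 1.16 CPM. Of 13 tested receptor partners and adaptors, none passed in any comparison by any of the 3 tools. At an unadjusted p under 0.05 the counts were 0 in Upy-PEG against PBS, 1 in antimiR-195 against Upy-PEG and 3 in antimiR-195 against PBS. The shares of all genes were 13.2%, 13.1% and 16.5% in the same order. Egfr, the remaining receptor gene of the family, averaged 7.80 CPM in PBS, 10.6 in Upy-PEG and 7.37 in antimiR-195 libraries. Lrig1, which encodes a protein that promotes removal of ERBB receptors, averaged 51.8, 44.9 and 40.1 CPM, and its PBS libraries lay above those of both other groups, as for 3.77% of all genes against Upy-PEG and 3.32% against antimiR-195. The level of Lrig1 was lowest in antimiR-195 replicates 2 and 3 (34.9 and 36.6 CPM), and its difference without them is not given.

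The Hippo effectors had the narrowest intervals of the 10 genes in all 3 comparisons. Yap1 (ENSMUSG00000053110; chromosome 9, 7931999 to 8004596, - strand) had 112, 105, 103 and 102 CPM in PBS, 110, 102, 100 and 101 in Upy-PEG and 109, 101, 96.1 and 113 in antimiR-195. The groups overlapped throughout. The 95% interval of the Yap1 fold was 0.858 to 1.11 for Upy-PEG against PBS, 0.895 to 1.16 for antimiR-195 against Upy-PEG and 0.873 to 1.13 for antimiR-195 against PBS. Wwtr1 (ENSMUSG00000027803; chromosome 3, 57455649 to 57575910, - strand) had 77.5, 78.7, 80.4 and 73.9 CPM in PBS, 75.5, 75.7, 72.5 and 75.2 in Upy-PEG and 80.4, 70.5, 77.7 and 75.6 in antimiR-195. Its fold intervals were 0.856 to 1.08, 0.905 to 1.14 and 0.8708 to 1.102 in the same order. The signs of these differences depended on the scaling: for Upy-PEG against PBS the log2 difference of Yap1 was -0.04 with TMM and 0.07 with library size alone, and that of Wwtr1 was -0.06 and 0.05. Library size alone shifted the median of all genes by 0.102 in that comparison and by -0.151 in antimiR-195 against Upy-PEG. RNA level carries no information on the phosphorylation that controls YAP and TAZ.

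Around them, 18 of 19 Hippo kinases and regulators were tested, and none passed by edgeR in any comparison. At an unadjusted p under 0.05 there were 2 in Upy-PEG against PBS (13.2% of all genes), 1 in antimiR-195 against Upy-PEG (13.1%) and 2 in antimiR-195 against PBS (16.5%). Limma voom called 1, Amotl2, in Upy-PEG against PBS, beside 6.22% of all genes, and DESeq2 called none in any comparison. Amotl2, whose product holds YAP in the cytoplasm and whose gene YAP itself induces, averaged 81.2 CPM in PBS, 59.8 in Upy-PEG and 48.8 in antimiR-195 libraries. All PBS libraries lay above those of both hydrogel groups, as for 3.77% of all genes against Upy-PEG and 3.32% against antimiR-195. The gap to antimiR-195 was narrow, with 72.7 CPM in its replicate 1 and 73.3 CPM in PBS replicate 4. The log2 differences against PBS were -0.44 ± 0.202 for Upy-PEG and -0.73 ± 0.203 for antimiR-195 (edgeR adjusted p = 0.370 and 0.253). For Amotl2 the latter was -0.41 without antimiR-195 replicates 2 and 3. Mob1a, a cofactor of the LATS kinases, averaged 41.3, 53.1 and 39.9 CPM, and its groups overlapped. Tead1, which encodes a DNA-binding partner of YAP, had 24.9, 101, 80.8 and 48.9 CPM in PBS, 83.5, 40.8, 42.0 and 31.8 in Upy-PEG and 51.5, 13.04, 14.5 and 65.2 in antimiR-195. Its groups overlapped, and its lowest values were those of antimiR-195 replicates 2 and 3. The log2 difference of Tead1 between antimiR-195 and Upy-PEG was -0.46 ± 0.524, and 0.24 without those libraries.

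Genes that YAP and TAZ are known to induce gave a mixed picture. Of the 19 tested, 11 were higher and 8 lower in Upy-PEG than in PBS (14 and 5 with library size alone), with a median log2 difference of 0.12 beside -0.03 for all genes. None passed by edgeR or DESeq2, and 4 had an unadjusted edgeR p under 0.05, beside 13.2% of all genes. Limma voom called 1, Ccn2, beside 6.22% of all genes. Ccn2, a matricellular protein gene, averaged 90.9 CPM in PBS, 157 in Upy-PEG and 140 in antimiR-195 libraries, a log2 difference of 0.79 ± 0.266 for Upy-PEG against PBS (edgeR adjusted p = 0.202). Ccn1 and Ankrd1, the other classical targets, were nearer to PBS, with log2 differences of 0.12 ± 0.186 and 0.06 ± 0.218. Of the 19, 12 were lower in antimiR-195 than in Upy-PEG (15 with library size alone), while 49.2% of all genes were higher. None was past the adjusted threshold by any of the 3 tools, and 5 had an unadjusted edgeR p under 0.05, beside 13.1% of all genes. Myof, a membrane repair gene, averaged 15.1 against 26.7 CPM, and its 4 antimiR-195 libraries lay below all 4 of Upy-PEG, as for 2.46% of all genes (log2 difference -0.82 ± 0.214, edgeR adjusted p = 0.364).

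The cardiac factor genes Gata4, Tbx20 and Meis1 overlapped between the groups in all 3 comparisons. Gata4 (ENSMUSG00000021944; chromosome 14, 63198922 to 63271692, - strand) had 109, 123, 125 and 131 CPM in PBS, 128, 115, 123 and 107 in Upy-PEG and 121, 91.9, 110 and 139 in antimiR-195. Its log2 difference was -0.05 ± 0.122 for Upy-PEG against PBS (0.06 with library size alone) and -0.03 ± 0.122 for antimiR-195 against Upy-PEG (0.14 without antimiR-195 replicates 2 and 3). The highest and the lowest of the 12 libraries were both in the antimiR-195 group. Tbx20 (ENSMUSG00000031965; chromosome 9, 24718138 to 24774303, - strand), with the 2 matches shown above, had 78.2, 124, 119 and 92.0 CPM in PBS, 124, 106, 99.6 and 92.9 in Upy-PEG and 106, 56.5, 67.2 and 120 in antimiR-195. The log2 difference of Tbx20 between antimiR-195 and Upy-PEG was -0.27 ± 0.219 (edgeR adjusted p = 0.548). Leaving out antimiR-195 replicates 2 and 3 turned it to 0.10.

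Meis1 (ENSMUSG00000020160; chromosome 11, 18879817 to 19018985, - strand), the gene of the brake on cardiomyocyte division, had 19.03, 22.01, 21.98 and 21.94 CPM in PBS, 25.1, 21.7, 21.8 and 17.95 in Upy-PEG and 19.4, 14.7, 17.2 and 22.7 in antimiR-195. Again antimiR-195 replicates 2 and 3 were the lowest of the 12. Its log2 difference was 0.03 ± 0.137, -0.23 ± 0.137 and -0.20 ± 0.138 for Upy-PEG against PBS, antimiR-195 against Upy-PEG and antimiR-195 against PBS. Leaving out those 2 libraries gave -0.037 and -0.0039 for the latter comparisons. MEIS1 activates Cdkn1a, which encodes the cell-cycle inhibitor p21. Cdkn1a had 12.9, 15.7, 14.1 and 14.4 CPM in PBS, 36.3, 28.3, 23.3 and 17.7 in Upy-PEG and 14.3, 19.7, 17.5 and 42.4 in antimiR-195. All Upy-PEG libraries were above all PBS libraries, as for 5.91% of all genes, with a log2 difference of 0.89 ± 0.294 (edgeR adjusted p = 0.194). Of the 11 tested MEIS and PBX partners and targets, Cdkn1a was the 1 gene with an unadjusted p under 0.05 in that comparison, beside 13.2% of all genes. None of the 11 passed by edgeR, DESeq2 or limma voom.

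Of 17 other cardiac transcription factors and cofactors tested, 2 were higher and 15 lower in Upy-PEG than in PBS (7 and 10 with library size alone), beside 44.7% of all genes higher. Their median log2 difference was -0.13 beside -0.03 for all genes. By edgeR, DESeq2 or limma voom 0 were past the adjusted threshold, and 0 had an unadjusted edgeR p under 0.05, beside 13.2% of all genes. All 8 cardiomyocyte markers were also lower in that comparison (median -0.29, and 8 of 8 lower with library size alone), and their part in these values was not tested. In antimiR-195 against PBS 13 of 17 were lower (15 with library size alone), while 50.8% of all genes were higher. By the 3 tools 0 were past the adjusted threshold, and 3 had an unadjusted edgeR p under 0.05, beside 16.5% of all genes. Those 3 were Mef2d (195.02 CPM in PBS and 140 in antimiR-195), Zfpm1 (29.4 and 22.8), which encodes the GATA cofactor FOG1, and Tbx5 (28.8 and 22.2). Mef2d was lowest of all libraries in antimiR-195 replicates 2 and 3 (96.3 and 121.5 CPM, against 167 and 173 in replicates 1 and 4). Tbx5 had 16.3 and 21.1 CPM in replicates 2 and 3, and Zfpm1 was lowest in replicate 2 (17.4 CPM). Differences of these genes without replicates 2 and 3 are not given.

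Over the 12 libraries, the level of 6 of the 10 genes was correlated with the length slope at an adjusted p under 0.05 (Pearson r of log2 CPM, 100000 permutations, Benjamini-Hochberg over 10 relations). The slope was fitted to the log2 CPM of the tested genes, and the share of all genes that follow it was not counted. This count is therefore not shown to be particular to the 10 genes. By Spearman rho 3 of these 6 passed, Tbx20, Meis1 and Gata4. The permutation tests treat the 12 libraries as exchangeable, across groups. For Tbx20 r was 0.968 (Spearman rho 0.916, adjusted permutation p = 0.0001), and it was 0.893 without antimiR-195 replicates 2 and 3, which lie farthest from the median slope. For Meis1 r was 0.913 (rho 0.944, adjusted permutation p = 0.00025) and 0.735 without them. Gata4 (r = 0.829), Erbb3 (0.786) and Erbb2 (0.678) had 0.591, 0.532 and 0.564 without them. For Erbb4, r was 0.794 with all libraries and 0.26 without them, so its relation rests on those libraries. The lowest adjusted permutation p of the remaining genes was 0.115, for Wwtr1 (r = 0.522). Fstl1 had r = -0.201. The counted lengths of the 10 genes, 2103 bases for Nrg1 to 12355 for Erbb4, lie on both sides of the median of 3514 for tested genes, and Gata4 at 3904 is close to it. The slope and the antimiR-195 group cannot be told apart for replicates 2 and 3.

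**Figure D3:**
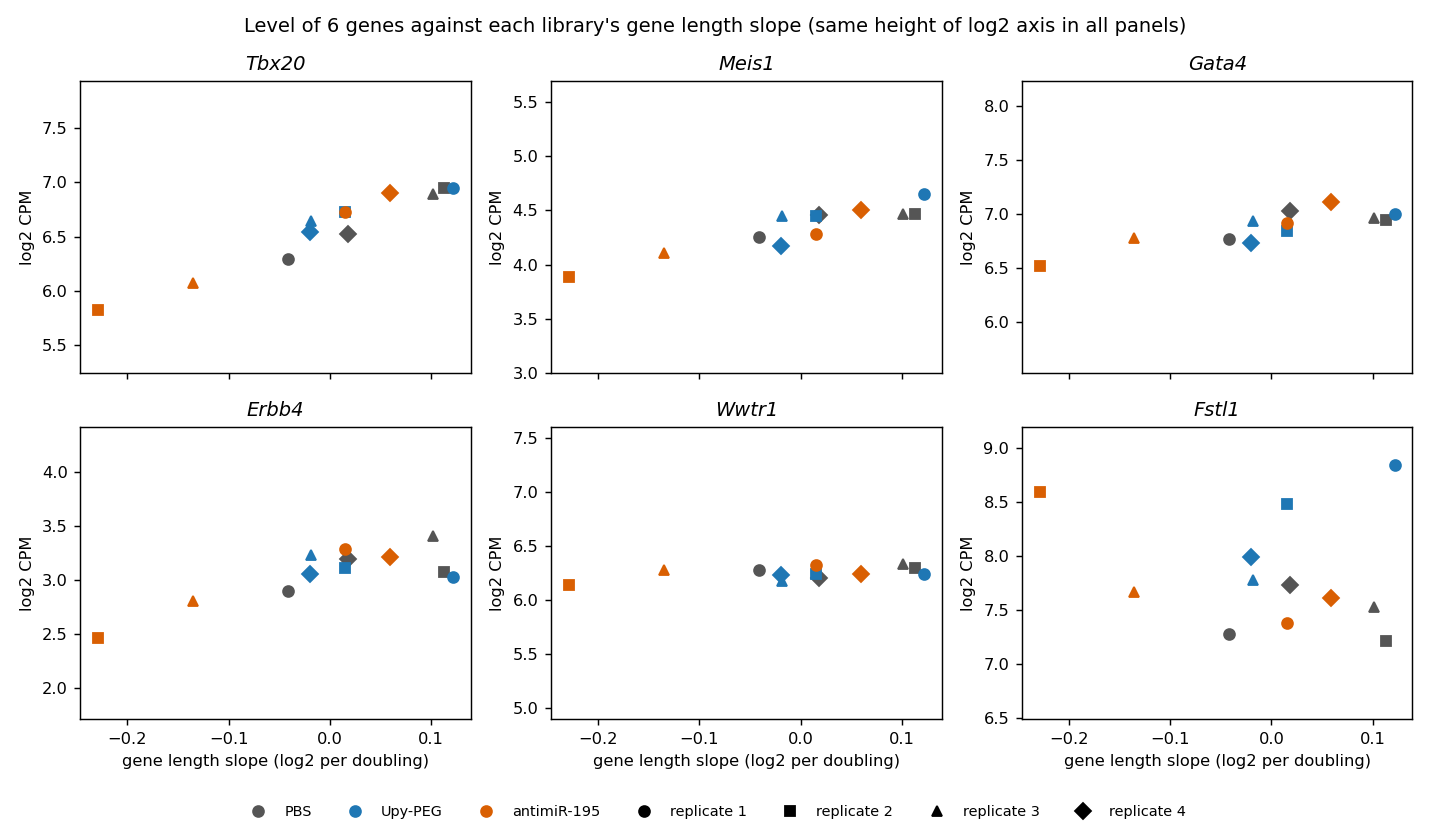
Log2 CPM of 6 genes (vertical axes of equal height) against the gene length slope of each library (horizontal axis, log2 CPM per log2 unit of gene length), with colour for the group and shape for the replicate. Tbx20 and Meis1 rise along the slope over all libraries, Erbb4 mainly through antimiR-195 replicates 2 and 3, Wwtr1 stays nearly level, and Fstl1 shows no such order.

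Fstl1 had the clearest difference between groups of the 10. Fstl1 (ENSMUSG00000022816; chromosome 16, 37776873 to 37836514, + strand) had 155, 148, 184 and 213 CPM in PBS, 459, 357, 219 and 255 in Upy-PEG and 166, 386, 203 and 194.7 in antimiR-195. Every Upy-PEG library exceeded every PBS library, as for 5.91% of all genes, and the gap between the nearest of them, Upy-PEG replicate 3 and PBS replicate 4, was narrow. The log2 difference was 0.88 ± 0.271 (SE; 1.84-fold, 95% interval 1.23 to 2.76; edgeR adjusted p = 0.158). It passed with DESeq2 (adjusted p = 0.0425), with limma voom and sample weights (adjusted p = 0.0279). With edgeR it passed once antimiR-195 replicates 2 and 3 were left out of the shared spread, at an adjusted p = 0.0471. With 1 library left out at a time the edgeR adjusted p was between 0.0559 and 0.484.

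Against Upy-PEG, the antimiR-195 libraries had a log2 difference in Fstl1 of -0.44 ± 0.270 (edgeR adjusted p = 0.446). AntimiR-195 replicate 2, at 386 CPM, lay among the highest Upy-PEG libraries, while the other 3 lay within the PBS range. Without that library the difference was -0.79, and without Upy-PEG replicate 1 it was -0.23. Against PBS it was 0.44 ± 0.270 with all libraries and 0.10 without antimiR-195 replicate 2. The mean of Fstl1, which carries 2 seed matches, was 237 CPM in antimiR-195 and 323 CPM in Upy-PEG libraries.

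Fstl1 is expressed by fibroblasts, and it was highest in the same libraries as the matrix genes Postn and Sparc. Postn, a gene of activated fibroblasts, had 139, 112, 141 and 151 CPM in PBS, 687, 513, 224 and 293 in Upy-PEG and 165, 464, 170 and 224 in antimiR-195. Sparc, a matricellular gene of the same extended family as Fstl1, had 538, 510, 589 and 610 CPM in PBS, 1243, 995, 578 and 708 in Upy-PEG and 489, 724, 570 and 603 in antimiR-195. As for Fstl1, Upy-PEG replicate 1 was the highest library for both and antimiR-195 replicate 2 the highest of its group. Summed fibroblast markers (8 of 8 detected, with Col1a1, Col1a2, Dcn, Pdgfra, Tcf21, Lum, Gsn and Postn) were 3000 to 4117 CPM in PBS, 3398 to 6441 in Upy-PEG and 2947 to 4040 in antimiR-195 libraries. Of these 8, 7 were higher in Upy-PEG than in PBS, some of them by little: Dcn averaged 532 against 496 CPM, Pdgfra 50.2 against 49.4 and Tcf21 8.93 against 8.36. Gsn was lower, at 966 against 1190 CPM. The part of these fibroblast markers in the Fstl1 values was not tested. All 8 macrophage markers were also higher in that comparison, 7 of them with groups that did not overlap, beside 44.7% and 5.91% of all genes. Of the 13 tested genes of the FSTL1 family and its receptors, none passed in any comparison by any of the 3 tools. At an unadjusted edgeR p under 0.05 there were 2 (Sparc and Fstl3) in Upy-PEG against PBS, 1 (Sparc) in antimiR-195 against Upy-PEG and 0 in antimiR-195 against PBS. The shares of all genes were 13.2%, 13.1% and 16.5%. Fstl3, which encodes an activin-binding follistatin-like protein, averaged 6.23 CPM in PBS, 10.1 in Upy-PEG and 7.59 in antimiR-195 libraries.

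**Figure D4:**
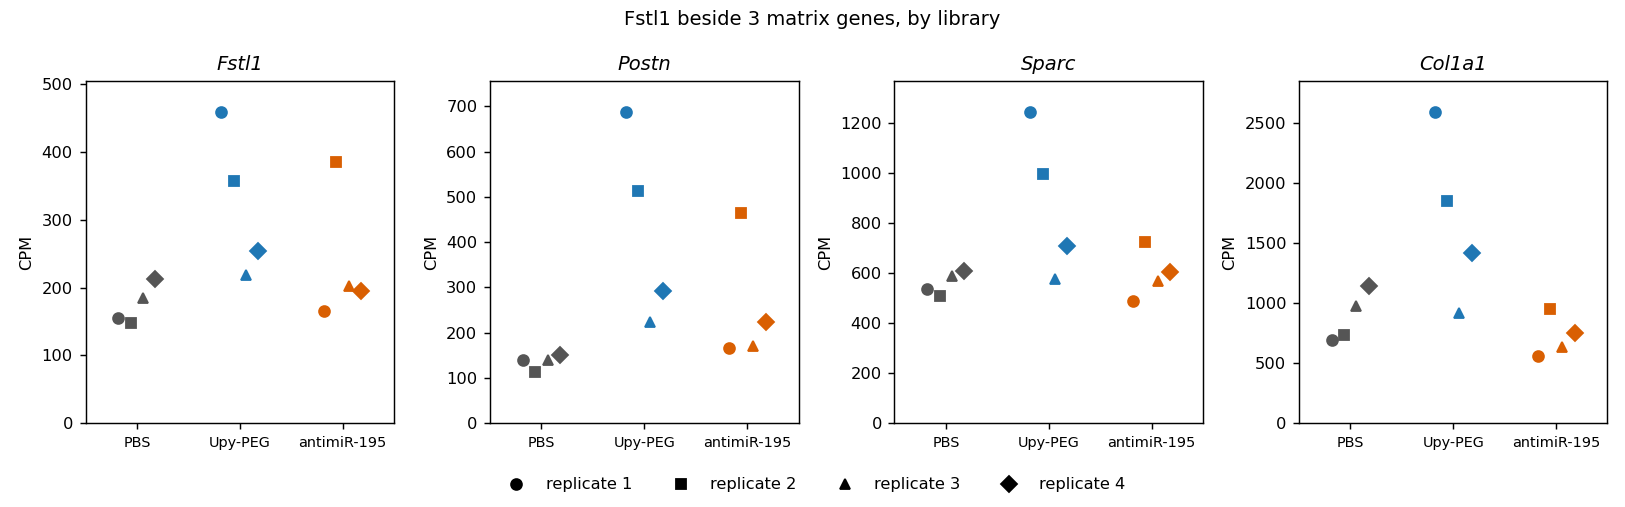
Level of Fstl1 and of the matrix genes Postn, Sparc and Col1a1 in each library (vertical axis, TMM-scaled CPM from 0; shape marks the replicate). Upy-PEG replicate 1 is highest in all 4 panels, and antimiR-195 replicate 2 is the highest of its group, at 386 CPM for Fstl1 and 464 CPM for Postn.

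The cell-cycle genes that these regulators act on were measured in the same libraries. Of 20 tested, 13 were higher and 7 lower in Upy-PEG than in PBS (16 and 4 with library size alone), with a median log2 difference of 0.44 beside -0.03 for all genes. None passed by edgeR (10 at an unadjusted p under 0.05, beside 13.2% of all genes), while DESeq2 called 7 (3.46% of all genes) and limma voom 6 (6.22%). Of the 8 macrophage markers, all 8 were higher in the same comparison and DESeq2 called 6, and their part in the cell-cycle values was not tested. Mki67, a proliferation marker, had 7.69, 10.2, 15.1 and 15.5 CPM in PBS, 44.1, 27.4, 19.1 and 23.01 in Upy-PEG and 10.6, 13.3, 8.70 and 13.3 in antimiR-195. All Upy-PEG libraries lay above those of both other groups, as for 5.91% of all genes against PBS and 2.46% against antimiR-195. For Upy-PEG against PBS the log2 difference of Mki67 was 1.23 ± 0.268 (edgeR adjusted p = 0.0971). Leaving out antimiR-195 replicates 2 and 3, its edgeR adjusted p was 0.0402. For antimiR-195 against Upy-PEG the difference was -1.31 ± 0.270 (edgeR adjusted p = 0.364). In antimiR-195 against PBS 13 of 20 were higher (11 with library size alone), beside 50.8% of all genes, with a median of 0.16. Of these 20, 0 were past the adjusted threshold by the 3 tools. At an unadjusted edgeR p under 0.05 there were 2, Cdk4 (66.0 against 52.3 CPM) and Ccnd2 (72.1 against 108), beside 16.5% of all genes. Ccnd2 was lowest in antimiR-195 replicates 2 and 3 (49.4 and 55.2 CPM), and its difference without them is not given. Of the 20, 5 were higher in antimiR-195 than in Upy-PEG (1 with library size alone), beside 49.2% of all genes. None passed the adjusted threshold by edgeR or limma voom, and 8 had an unadjusted edgeR p under 0.05, beside 13.1% of all genes. DESeq2 called 1, Mki67, beside 0.108% of all genes. Whole ventricle does not show which cells these transcripts came from.

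Among themselves, the 10 genes formed 45 pairs, of which 9 had an adjusted permutation p under 0.05 by Pearson r, all 9 positive and all among Erbb3, Erbb4, Meis1, Gata4 and Tbx20. By Spearman rho only 2 of these 9 passed, Meis1 with Gata4 and Meis1 with Tbx20 (adjusted permutation p = 0.00607 for both), and the other 7 had 0.135 to 0.286. The share of all gene pairs past 0.05 was not counted, so these counts are not shown to be particular to the 10 genes. The highest pairs of the 10 were Meis1 with Gata4 (r = 0.898, rho 0.909, adjusted permutation p = 0.0054) and Meis1 with Tbx20 (r = 0.896, rho 0.888). Without the 2 libraries farthest from the median of Meis1 these were 0.773 and 0.697. Erbb4 with Tbx20 had r = 0.825 and Erbb4 with Meis1 had 0.745, and without antimiR-195 replicates 2 and 3 these were 0.425 and 0.195. These 5 genes are the ones most tied to the length slope together with Erbb2, and the part of the slope in their correlation was not tested. Yap1 and Wwtr1, which act in the same pathway, had r = 0.305 (adjusted permutation p = 0.484). Since Nrg1 was tested only because of the Upy-PEG libraries, its correlations are given as a description, with no p-value. Nrg1 and Erbb2 had r = 0.689, which was 0.164 without Upy-PEG replicates 1 and 4. Nrg1 and Fstl1 had r = 0.628, which was 0.313 without the same libraries.

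**Figure D5:**
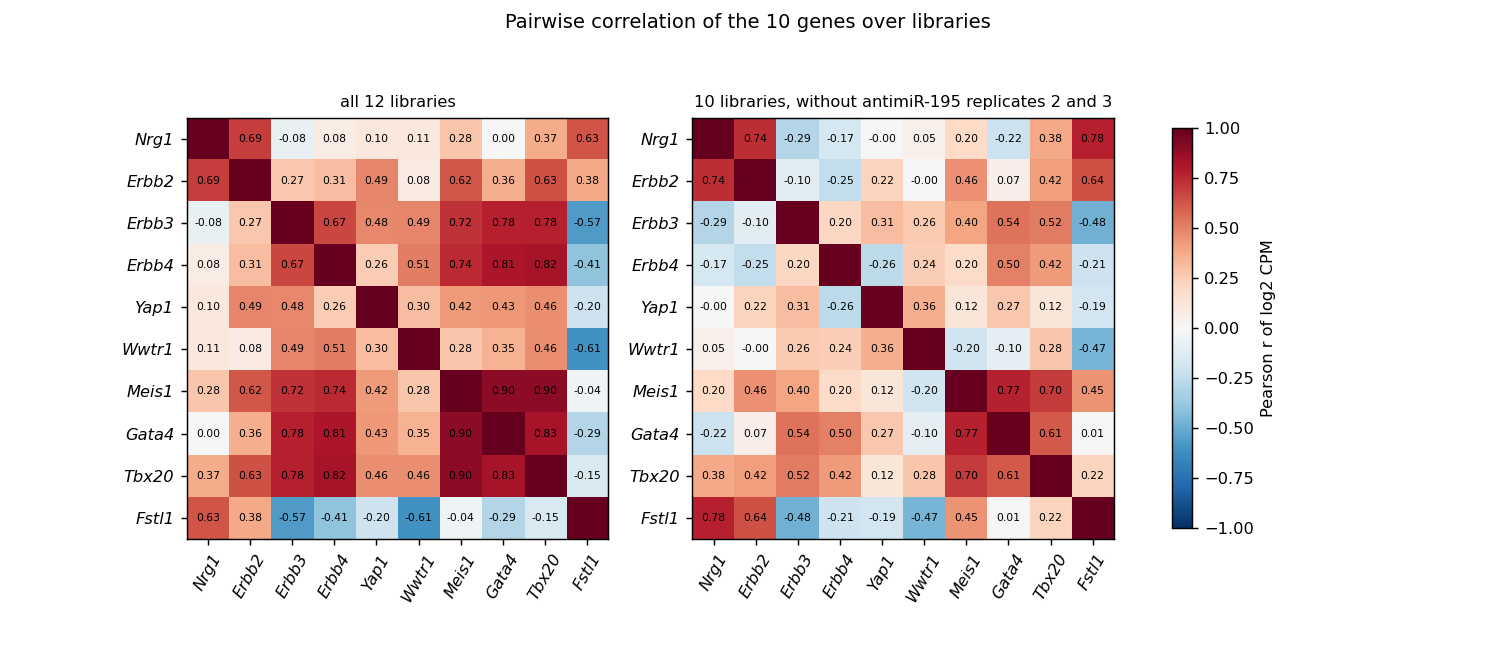
Pearson r of log2 CPM for every pair of the 10 genes, over all 12 libraries on the left and over the 10 libraries other than antimiR-195 replicates 2 and 3 on the right (red positive, blue negative). The block of Erbb3, Erbb4, Meis1, Gata4 and Tbx20 is red on the left and paler on the right, where Erbb4 with Meis1 is 0.195.

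Between antimiR-195 and Upy-PEG, the genes with a miR-195 seed match had log2 differences of -0.13 (Erbb4), -0.27 (Tbx20) and -0.44 (Fstl1). That is 0 of 3 higher, beside 49.2% of all genes, and the share among all genes that hold a match was not counted. The 7 genes with no match as defined above, of which Nrg1 and Yap1 held the shorter site, had a median of -0.05, and 2 of the 7 were higher. They include Nrg1 (-0.94), which was tested only because of the Upy-PEG libraries. No difference between the 3 and the 7 was tested. Over all 10 genes the median log2 difference was -0.18 in antimiR-195 against Upy-PEG, -0.12 in antimiR-195 against PBS and -0.0036 in Upy-PEG against PBS, beside -0.01, 0.01 and -0.03 for all genes. Without antimiR-195 replicate 2 the medians of the 10 against Upy-PEG and PBS were -0.06 and -0.016, and without antimiR-195 replicate 4 they were -0.28 and -0.20. Without replicates 2 and 3 together they were 0.08 and 0.07. Without antimiR-195 replicates 2 and 3, the differences of Erbb4 and Tbx20 against Upy-PEG were 0.15 and 0.10, and that of Fstl1 was -0.84.

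The tested genes whose profile over the 12 libraries was most like each of the 10, by Pearson r of log2 CPM, were as follows, as a description. Nrg1 was closest to Ahnak2 (0.934) and Ddx60 (0.914), and Erbb2 to Cmpk2 (0.941). Erbb3 was closest to Oxsr1 (0.975) and Erbb4 to Zfp939 (0.951). Yap1 had its closest match in Dhx8, at 0.851 the lowest of the closest matches, and Wwtr1 in Supt7l (0.919). Meis1 was closest to Fgd6 (0.992), Gata4 to Arhgap29 (0.953) and Tbx20 to Nfatc1 (0.986). Fstl1 was closest to Cthrc1 (0.973), Knstrn (0.973) and Col5a2 (0.967), of which Cthrc1 and Col5a2 are matrix genes. The libraries share the group differences and the length slope, which all these values include.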

How the data were processed

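Left ventricle RNA was sequenced in 12 libraries, per the labels from TRIzol extracts with a TruSeq stranded mRNA kit. The deposited counts are the authors' reads per gene, which the submitters' processing notes tie to STAR, HTSeq, DESeq and GRCm38. Versions and whether counting used strand are not given in the sources used here. The authors' deposited RPKM table gave 1 length per gene, and its values were used for levels between genes. Symbols and coordinates came from GENCODE M21, which matched 36345 of 38293 gene IDs.

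Categories that name no gene were left out (no feature 6.25% to 8.77%, ambiguous 0.664% to 0.898%). Genes were tested with edgeR 4.0.16 (R 4.3.3): filterByExpr by group, TMM, a model of 3 group means on all 12 libraries, glmQLFit and glmQLFTest, and Benjamini-Hochberg adjustment over 14770 genes at 0.05. The SE is the log2 difference divided by the square root of the F statistic, and intervals are 95%. CPM are TMM-scaled with no prior count, and log2 CPM have a prior count of 2. Library totals were 22353241 to 30278621 counts, and Nrg1 had 6 to 43 counts a library, the fewest of the 10 genes. Replicate numbers follow the order of deposition and pair nothing. The test script was checked on simulated data.

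The alternatives were RLE size factors, no filter, DESeq2 1.42.0, limma 3.58.1 (voom with sample weights, and limma-trend on log2(RPKM + 0.1)), the 8 libraries compared alone, the length slope as covariate, leaving out antimiR-195 replicates 2 and 3, and leaving out each library. Library size alone in place of TMM was added after the data were seen. The 10 genes, the lists and the tests were chosen with earlier results of these data known. Other genes were named as the 3 of each list with the lowest p in a comparison, and Ccn1, Ccn2, Ankrd1, Egfr, Tead1 and Cdkn1a always; not all of these are described. Postn and Col1a1 were shown after their values were seen.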

Additional observations from a re-analysis of the deposited data

Results flagged for a closer look

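In each of the 10 genes and 3 groups, the highest and the lowest of the 4 libraries were compared with the others, and 5 of the 30 sets held a library whose gap to the nearest other was over 0.829 of the whole range. Chance flags about 1 in 20 such sets. Fstl1 in antimiR-195 replicate 2 was 386.07 CPM, with the other 3 libraries of the group between 165.84 and 202.59 CPM. Erbb3 in PBS replicate 2 was 22.311 CPM, with the others between 14.171 and 15.362 CPM. Yap1 in Upy-PEG replicate 1 was 109.76 CPM, with the others between 100.15 and 101.51 CPM. Wwtr1 in Upy-PEG replicate 3 was 72.458 CPM, below the others at 75.207 to 75.736 CPM. Meis1 in PBS replicate 1 was 19.025 CPM, below the others at 21.94 to 22.014 CPM.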

How the results depend on the processing

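Of 30 log2 differences (10 genes in 3 comparisons), 11 kept their sign in every setting, and 62 of 629 values over all settings had the other sign, 23 of them among the 360 with 1 library left out. The largest difference whose sign turned was 0.2756 in size. Except where stated, the cause of a change was not tested. No paired analysis was possible because the labels carry no replicate numbers.

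The number of all genes past the adjusted threshold in Upy-PEG against PBS was 0, but 69 with no filter, 511 with DESeq2, 918 with limma voom, 172 with the 8 libraries compared, 332 with the length slope as covariate and 349 without antimiR-195 replicates 2 and 3. Leaving out 1 library gave 0 to 150, the highest without antimiR-195 replicate 2. Of the 10 genes, 1 (Fstl1) was called with DESeq2, with limma voom and without antimiR-195 replicates 2 and 3. DESeq2 called 16 genes in antimiR-195 against Upy-PEG. In antimiR-195 against PBS, no filter gave 1, DESeq2 97 and limma voom 1.

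In Upy-PEG against PBS the sign turned with limma voom for Meis1 (-0.05092) and Tbx20 (-0.05999). With RPKM it turned for Erbb4 (0.0533), Yap1 (0.06417), Wwtr1 (0.04536) and Gata4 (0.05389), and with library size alone for Erbb4 (0.05217), Yap1 (0.06808), Wwtr1 (0.04761) and Gata4 (0.05954). The length covariate turned Erbb4 (0.009426). In antimiR-195 against Upy-PEG it turned with limma voom for Erbb3 (0.2149) and Gata4 (0.05743), with RPKM for Yap1 (-0.1269) and Wwtr1 (-0.1261), and with library size alone for Yap1 (-0.127) and Wwtr1 (-0.1282). The length covariate turned Erbb3 (0.1913), Erbb4 (0.03369), Gata4 (0.09981) and Tbx20 (0.02758). Without antimiR-195 replicates 2 and 3 the values of Erbb3, Erbb4, Gata4 and Tbx20 were 0.2624, 0.1465, 0.1377 and 0.09805. In antimiR-195 against PBS limma voom turned Yap1 (0.03594). The length covariate turned Erbb3 (0.03821), Erbb4 (0.04311), Yap1 (0.04393), Wwtr1 (0.01309), Meis1 (0.009432), Gata4 (0.08785) and Tbx20 (0.1674). Without antimiR-195 replicates 2 and 3 Erbb3 was 0.03669, Erbb4 0.1035, Yap1 0.08036, Wwtr1 0.01283, Gata4 0.09617 and Tbx20 0.1372.

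With 1 library left out, the sign turned in Upy-PEG against PBS for Erbb4 (-0.1268 to 0.04573), Meis1 (-0.04488 to 0.1076) and Tbx20 (-0.07721 to 0.1343). In antimiR-195 against Upy-PEG it turned for Erbb3 (-0.1716 to 0.103), Erbb4 (-0.2601 to 0.003279), Yap1 (-0.0144 to 0.05454), Wwtr1 (-0.01579 to 0.05157) and Gata4 (-0.1356 to 0.05079). In antimiR-195 against PBS it turned for Yap1 (-0.05067 to 0.02681), Wwtr1 (-0.06317 to 0.004291) and Gata4 (-0.1819 to 0.01339).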
